A study of Mus musculus with 16 samples.

Results

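The genes described here make, import, move and export cholesterol and fatty acids, together with the proteins that set their transcription. They are 41 of the 49585 genes in each count table, chosen by gene symbol with earlier results of these same libraries in view, so their counts and adjusted p-values are a description and not independent evidence of a direction. Of these genes 19 belong to sterol synthesis, 5 to the SREBP regulators, 9 to fatty acid synthesis, and 8 to uptake, transport and efflux. All 41 had a row in both tables and passed the filter on low counts in the first table described below. In the TET2 knock-in libraries 40 passed it and *Abcg1* did not. Gene expression was measured by RNA-seq of ribosomal RNA-depleted total RNA from C2C12 cells, a mouse myoblast line that forms myotubes when serum is reduced, in 16 libraries of 17883417 to 37790358 counts each.

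The first table holds 8 libraries, 2 each of WT and AMPK-KO cells at d0 and at d8. AMPK-KO cells lack both catalytic subunits of AMP-activated protein kinase, *Prkaa1* and *Prkaa2*, after CRISPR editing. Which knockout clone or clones gave these libraries is not stated in the labels. A figure caption of the paper, for MeDIP-seq and RNA-seq tracks, mentions 2 independent AMPK-KO lines without tying them to single libraries. Loss of AMPK and traits of a clone therefore cannot be told apart in these libraries. Cells at d0 were grown in 10% fetal bovine serum, and cells at d8 had been kept in 2% equine serum after confluence, so day and serum cannot be told apart. The second table holds 8 libraries, all of them AMPK-null and taken at d0, in which a FLAG-BirA tag and an EGFP coding sequence had been inserted at endogenous *Tet2*, with serine 97 kept (TET2-WT) or changed to glutamic acid (TET2-S97E), a change that mimics phosphorylation. Each TET2 genotype was represented by 2 clones with 2 replicates each, and a clone is 1 cell line, so the 4 libraries of a genotype share 2 origins. Standard errors (SE) printed for the comparison of TET2 genotypes do not account for clone. Nothing in the labels says that replicates came from separate cultures, and p-values measure the spread between these libraries, which may be technical. With 2 libraries against 2, an unchanged gene separates without overlap, in either direction, with a probability of 0.333. Such separation is given below as a description only. The share of all genes that separate was counted only for the TET2 genotypes, with 4 libraries against 4. In bulk RNA, a change in the share of cells that express a gene and a change of RNA per cell cannot be told apart.

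The edited genes were read first. *Prkaa1* stood at 158 and 159 CPM (counts scaled to library size, with TMM factors computed within its table) in WT d0 and at 79.6 and 78.0 CPM in AMPK-KO d0. At d8 it stood at 126 and 125 CPM in WT and at 83.3 and 82.4 CPM in AMPK-KO. *Prkaa2* stood at 1.69 and 1.79 CPM in WT d0 against 0.209 and 0.42 CPM in AMPK-KO d0, and at 6.22 and 10.1 CPM in WT d8 against 1.26 and 0.825 CPM in AMPK-KO d8. Both were lower in the knockout libraries without overlap, but RNA outside an edited site is still counted, so these levels do not check loss of the protein. *Tet2* itself lay between 22.5 and 58.4 CPM in the 4 TET2-WT libraries and between 7.87 and 22.1 CPM in the 4 TET2-S97E libraries, with no overlap. The tables were scaled separately, and levels set side by side across them carry no test.

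Several libraries stood apart from their replicates. In WT d0, replicate 1 was higher than replicate 2 in 18 of 19 sterol synthesis genes, with a median log2 ratio of 0.76, while over all genes tested that median was near 0 at -0.0034. It was also higher in 8 of 8 uptake, transport and efflux genes (median log2 ratio 0.88). At d8 WT replicate 1 was again higher in 19 of 19 sterol synthesis genes (median log2 ratio 0.64), but in 4 of 8 uptake, transport and efflux genes (-0.011). In AMPK-KO d0, replicate 1 was higher in 2 of 19 sterol synthesis genes (median log2 ratio -0.31) and in 1 of 9 fatty acid synthesis genes (-0.54), and in AMPK-KO d8 it was higher in 12 of 19 sterol synthesis genes (0.10). AMPK-KO d8 replicate 1 had a summed level of 1390.0 CPM over 10 interferon-stimulated genes against 48.2 CPM in replicate 2, and 2963 CPM over 8 muscle markers against 12610.0 CPM.

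SREBP transcription factors are made as membrane proteins of the endoplasmic reticulum and held there by SCAP and the INSIG proteins while sterols are plentiful. When membrane sterol falls, SCAP carries the precursor to the Golgi, where it is cleaved, and the released factor enters the nucleus and switches on sterol and fatty acid synthesis genes, often together with NF-Y bound at a CCAAT box. Cells with excess oxysterol instead use the liver X receptors (LXR), encoded by *Nr1h2* and *Nr1h3*, to raise the sterol exporters *Abca1* and *Abcg1*. Proliferating cells draw on both sterol and fatty acid synthesis for new membrane.

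Promoter sequences are given for 4 members whose levels are described below, since SREBP and NF-Y act through letters close to the start site. The Hmgcs1 sequence was taken because it is the only member window with the sterol response element, and the other stretches were picked after values were seen, to show the CCAAT box in an early enzyme, a late enzyme and a regulator. The sequences come from RefSeq on GRCm38.p6 and are written 5′ to 3′ on the strand of the gene. They cover chr13:119690101-119690350 (plus strand, 250 bases up to the start of *Hmgcs1*), chr13:8885506-8885605 (plus strand, 100 bases up to the start of *Idi1*), chr5:4104698-4104797 (minus strand, 100 bases up to the start of *Cyp51*) and chr5:28071162-28071261 (plus strand, the first 100 bases of the *Insig1* window, which begins 250 bases before the start). The starts are those of the RefSeq windows and differ from the gene starts annotated by GENCODE, so that the *Idi1* stretch lies inside the GENCODE gene, which begins at 8885501, and the *Cyp51* stretch reaches into its gene, which ends at 4104746. Capitals mark the sterol response element TCACNCCAC and the CCAAT box, which reads ATTGG when it lies on the other strand.
Hmgcs1: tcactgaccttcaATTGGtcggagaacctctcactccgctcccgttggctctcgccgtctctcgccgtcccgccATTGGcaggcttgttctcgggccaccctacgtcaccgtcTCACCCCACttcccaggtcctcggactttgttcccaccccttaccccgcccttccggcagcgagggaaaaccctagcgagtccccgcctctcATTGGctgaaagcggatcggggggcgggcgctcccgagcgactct
Idi1: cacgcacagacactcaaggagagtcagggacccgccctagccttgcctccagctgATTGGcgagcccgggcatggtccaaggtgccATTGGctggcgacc
Cyp51: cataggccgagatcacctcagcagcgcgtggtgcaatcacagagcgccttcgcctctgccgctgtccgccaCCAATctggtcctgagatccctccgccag
Insig1: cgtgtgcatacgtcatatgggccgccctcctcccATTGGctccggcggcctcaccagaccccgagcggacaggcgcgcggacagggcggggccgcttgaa

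In the Hmgcs1 promoter the sterol response element reads TCACCCCAC and spans positions -137 to -129 from the start, with 3 inverted CCAAT boxes in the stretch printed. Windows of 300 bases, from 250 before to 50 after the start, were found for 32 of the 41 genes, and *Fdps*, *Fdft1*, *Sqle*, *Scd1*, *Scd2*, *Fads1*, *Stard4*, *Npc1* and *Abcg1* had none. Searching both strands, TCACNCCAC was present in 1 of the 32 members and in 1.44% of all 27025 genes with a window. CCAAT was present in 24 of 32 members and in 41.1% of all genes. By role it was found in 15 of 16 sterol synthesis genes, 4 of 5 SREBP regulators, 3 of 6 fatty acid synthesis genes and 2 of 5 uptake, transport and efflux genes. The E-box CACGTG was present in 6 of 32 members (*Hsd17b7*, *Sc5d*, *Dhcr7*, *Insig1*, *Scap* and *Abca1*) and in 8.09% of all genes, and the LXR element (AGGTCA repeated on the same strand with 4 bases between) in 0 of 32 members and 0.0148% of all genes. None of the 4 motifs contains the letters of another, and a match describes letters in this window and not a bound site.

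The TET2 table asked whether the phosphorylation-mimicking change of TET2 alters expression in cells without AMPK. Sterol synthesis genes were higher in TET2-S97E than in TET2-WT by a median of 1.95 on the log2 scale, which is 3.85-fold. The 4 TET2-S97E libraries lay above all 4 TET2-WT libraries for 17 of 19 genes, beside 7.3% of all genes tested. Fatty acid synthesis genes were higher by a median of 0.88 (log2), SREBP regulators by 0.13, and uptake, transport and efflux genes differed by -0.26, which turned to 0.16 without TET2-WT clone 2. These genes were selected on this contrast among others, so the values are listed as a description. The summed level of the 19 sterol synthesis genes was 690.5 and 687.6 CPM in TET2-WT clone 1, 441.7 and 390.2 CPM in TET2-WT clone 2, 1832 and 2255 CPM in TET2-S97E clone 1, and 2144 and 1672 CPM in TET2-S97E clone 2.

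The first enzymes of the pathway turn acetyl-CoA into isoprenoid units. *Acat2*, a cytosolic thiolase, was at 28.03, 23.6, 15.02 and 14.1 CPM in TET2-WT (clone 1 replicates 1 and 2, then clone 2 replicates 1 and 2) and at 75.4, 133, 84.1 and 78.4 CPM in TET2-S97E in the same order. *Hmgcs1*, which makes HMG-CoA and lies at chr13:119690379-119708260 on the plus strand (GRCm38, whole gene in GENCODE), was at 91.5, 79.7, 50.8 and 41.6 CPM in TET2-WT and at 251.3, 242, 375 and 247 CPM in TET2-S97E. *Mvk*, mevalonate kinase, was at 14.2, 18.7, 10.6 and 10.1 CPM in TET2-WT and at 34.7, 56.9, 44.7 and 44.6 CPM in TET2-S97E. In all 3 genes the groups did not overlap, and TET2-WT clone 2 was the lowest line. Their log2 fold changes were 2.20, 2.08 and 1.75. *Pmvk*, the next kinase, was the exception at 0.20, with overlapping groups between 8.98 and 14.3 CPM.

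*Idi1*, which isomerizes isopentenyl pyrophosphate, was at 10.9, 9.02, 6.37 and 3.46 CPM in TET2-WT and at 47.5, 44.7, 71.1 and 45.6 CPM in TET2-S97E. It had the largest difference of the 40 genes tested, 7.01-fold (log2 fold change 2.81, SE 0.33), and its lower TET2-S97E clone mean was 4.62 times its higher TET2-WT clone mean. *Mvd*, *Fdps* and *Fdft1*, the steps around it that lead to squalene, had log2 fold changes of 1.96, 2.35 and 1.95.

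The later enzymes convert squalene to sterols. *Sqle*, squalene epoxidase, was at 131, 128, 75.7 and 55.7 CPM in TET2-WT and at 381, 473, 408 and 305 CPM in TET2-S97E. *Lss*, which closes the sterol rings, was at 30.4, 29.7, 24.7 and 22.7 CPM in TET2-WT and at 81.5, 107, 79.9 and 74.7 CPM in TET2-S97E. *Cyp51*, lanosterol demethylase, was at 64.8, 66.1, 29.4 and 24.2 CPM in TET2-WT and at 184, 226, 242 and 167 CPM in TET2-S97E. All 3 were separated between genotypes, with log2 fold changes of 2.00, 1.67 and 2.15.

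*Nsdhl*, a sterol dehydrogenase that acts with *Msmo1* to remove methyl groups, was at 30.6, 29.7, 13.6 and 13.3 CPM in TET2-WT and at 103, 163, 127 and 103 CPM in TET2-S97E. *Sc5d*, a desaturase near the end of the pathway, was at 25.05, 23.97, 22.3 and 23.4 CPM in TET2-WT and at 49.9, 57.3, 60.5 and 54.5 CPM in TET2-S97E. It showed the smallest spread among TET2-WT libraries of any sterol synthesis gene, with a highest-to-lowest ratio of 1.12, and its log2 fold change of 1.23 (SE 0.11) was below the median of the group. The remaining late enzymes had log2 fold changes of 2.12 for *Msmo1*, 1.66 for *Tm7sf2*, 1.29 for *Hsd17b7*, 1.07 for *Ebp* and 0.84 for *Dhcr7*. *Lbr*, a lamin B receptor that also carries the same sterol reductase activity as *Tm7sf2*, differed by 0.28, and its groups overlapped between 30.5 and 45.9 CPM.

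**Figure D1:**
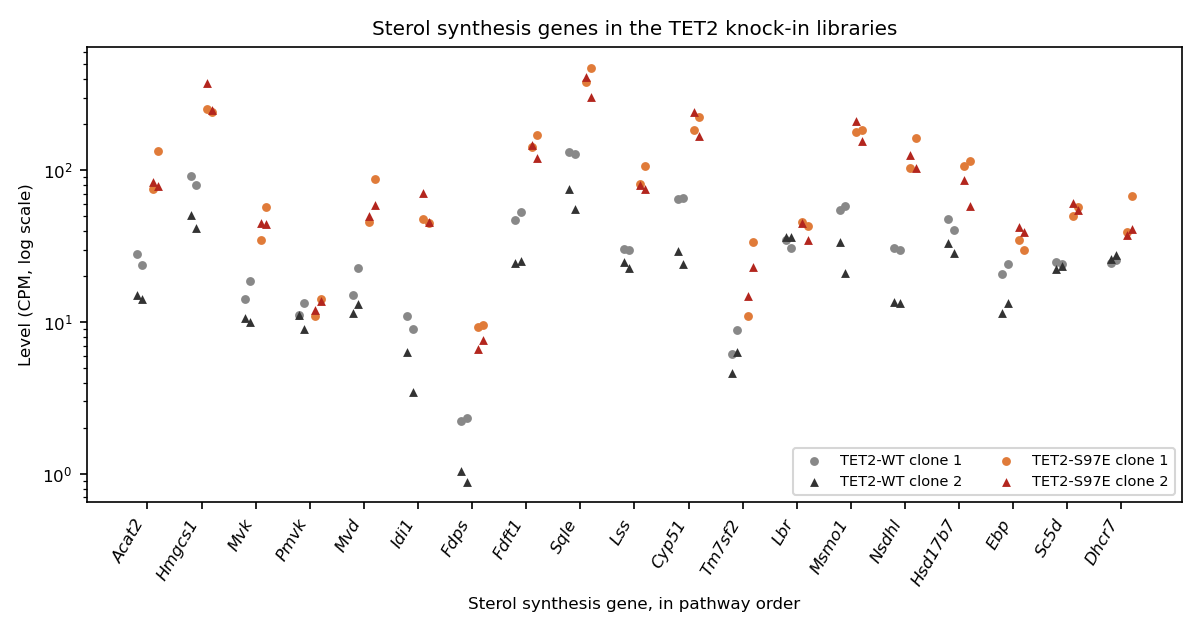
Level of each of the 19 sterol synthesis genes (CPM, log scale) in the 8 TET2 knock-in libraries, in pathway order, with 1 point per library coloured by clone. The TET2-S97E points lie above the TET2-WT points for 17 genes and mix with them for *Pmvk* and *Lbr*.

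Of the regulators, *Srebf2*, the SREBP most devoted to sterol genes, was at 238, 241, 187 and 195 CPM in TET2-WT and at 594, 698, 472 and 448 CPM in TET2-S97E (log2 fold change 1.36, SE 0.18). *Insig1*, which retains SCAP in the endoplasmic reticulum and is itself an SREBP target, was at 55.2, 55.8, 31.7 and 25.9 CPM in TET2-WT and at 118, 93.0, 143 and 99.1 CPM in TET2-S97E (1.42, SE 0.27). *Srebf1*, the SREBP more tied to fatty acid genes, was at 83.4, 104, 71.3 and 80.1 CPM in TET2-WT and at 65.9, 73.1, 71.4 and 83.2 CPM in TET2-S97E (-0.21, SE 0.14). The first and second were separated between genotypes, whereas *Srebf1*, *Insig2* (-0.11) and *Scap* (0.13) overlapped.

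*Fasn*, fatty acid synthase, was at 168, 156, 136 and 183 CPM in TET2-WT and at 252, 415, 278 and 396 CPM in TET2-S97E (log2 fold change 1.06, SE 0.19). *Scd2*, a stearoyl-CoA desaturase, was at 968, 849, 885 and 839 CPM in TET2-WT and at 1778, 1758, 1479 and 1282 CPM in TET2-S97E (0.83, SE 0.15). Its relative *Scd1* was at 450.0, 382, 553 and 545 CPM in TET2-WT and at 1402, 845, 720.1 and 585 CPM in TET2-S97E (0.88, SE 0.26). The genotypes did not overlap in any of the 3, but the *Scd1* values of TET2-S97E clone 2 replicate 2 and TET2-WT clone 2 replicate 1 were close. Across the 9 genes, all fitted changes were higher, from 0.38 for *Acly*, which supplies acetyl-CoA from citrate, to 1.57 for *Fads2*, a polyunsaturated fatty acid desaturase. Of these genes 7 were higher without overlap, beside 7.3% of all genes tested.

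In uptake, transport and efflux, *Stard4*, a cytosolic sterol carrier, was at 26.8, 22.2, 13.3 and 10.9 CPM in TET2-WT and at 62.7, 60.3, 78.4 and 58.3 CPM in TET2-S97E (log2 fold change 1.83, SE 0.27). *Npc1*, which exports cholesterol from lysosomes, was at 40.1, 33.0, 27.7 and 38.9 CPM in TET2-WT and at 47.4, 61.9, 51.0 and 64.3 CPM in TET2-S97E (0.69, SE 0.16). *Abca1*, the sterol exporter, was at 5.06, 3.27, 14.7 and 44.9 CPM in TET2-WT and at 26.3, 48.8, 18.3 and 15.2 CPM in TET2-S97E (0.68, SE 0.74). Only *Stard4* and *Npc1* of the 7 genes tested were separated, both higher in TET2-S97E, as were 7.3% of all genes tested. For *Abca1* the direction turned when TET2-WT clone 1 was left out (-0.13) or TET2-S97E clone 1 was left out (-0.03). It was called higher without TET2-WT clone 2, and also in the model of 4 clone groups, where 2558 of 14459 genes were called. *Npc2* (-0.41), *Mylip* (-0.57), *Nr1h2* (-0.26) and *Nr1h3* (-0.63) were fitted lower with overlapping groups, and *Abcg1* had 0 or 1 count in each of the 8 libraries.

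By edgeR's quasi-likelihood test with Benjamini-Hochberg adjustment over all 13433 genes tested, 26 of the 40 members were called higher at an adjusted p under 0.05 and 0 lower, where 3.71% of all genes tested were called higher and 3.28% lower. At an unadjusted p under 0.05, 30 members were higher and 1 (*Npc2*) lower, beside 12.3% of all genes higher and 11.2% lower, and DESeq2 called 27 higher, beside 6.36% of all genes, and 0 lower. The 26 were 17 sterol synthesis genes, 2 regulators, 5 fatty acid synthesis genes and 2 transport genes. All 4 TET2-S97E libraries lay above all 4 TET2-WT libraries for 28 of 40 members and for 7.3% of all genes tested. With counts summed per clone, so that 2 clones faced 2, edgeR called 0 of these members and 0% of all 15126 genes, so that design separates no gene at this threshold. The adjusted p of the 26 then ran from 0.277 to 0.415 by edgeR, and all 26 kept an unadjusted p under 0.05. These 26 had been called on the same counts, so low p-values were largely set in advance and are no further support. Of all genes, called before or not, 5.36% were higher at that p. With clone as a random effect in limma voom (estimated correlation 0.357), 13 sterol synthesis genes, 2 regulators, *Fads2* and *Stard4* were called, beside 1.24% of all genes, and *Fasn*, *Acaca*, *Scd2*, *Elovl6* and *Npc1* were among the calls lost. Without TET2-WT clone 2 replicate 1, 17 members and 304 of 14005 genes were called.

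Other gene groups moved with the same contrast. Of 8 muscle markers, edgeR called 6 higher in TET2-S97E, among them *Myog* at 0.407, 0.633, 2.11 and 13.9 CPM in TET2-WT and at 141, 180.2, 56.6 and 42.1 CPM in TET2-S97E. Their summed level ran from 859.7 to 1337 CPM in TET2-WT, where *Des* was the most abundant, and was 8243, 3789, 2713 and 1049 CPM in TET2-S97E, the last of these inside the TET2-WT range. Of 8 proliferation genes, 2 were called higher (*Mki67* 1.70, *Rrm2* 1.71 on the log2 scale), with sums of 185.4 to 395.4 CPM in TET2-WT and 384.5 to 866.4 CPM in TET2-S97E. Of 8 adipocyte markers 3 were tested and *Lpl* was called higher (4.37), through 290.9 and 447 CPM in TET2-S97E clone 2. *Cebpa* ran the other way without overlap, at 79.5 to 104 CPM in TET2-WT and 38.9 to 72.9 CPM in TET2-S97E (-0.76, not called), *Pparg* had a log2 fold change of 0.79 (not called), and *Cidec* and *Lep* had 0 counts in every library. Of 5 macrophage markers, *Ptprc* and *Adgre1* had 0 or 1 count in each library and *Csf1r* at most 1.21 CPM. *Cd68* stood at 6.66 and 4.36 CPM in TET2-S97E clone 1 against 1.90 to 2.64 CPM in TET2-WT, and *Lyz2* at 3.63 and 4.02 CPM in TET2-S97E clone 2 against 0.499 to 2.48 CPM in TET2-WT, and neither was called. The mitochondrial share of counts was 2.03% to 2.29% in TET2-S97E and 1.0% to 2.14% in TET2-WT. The part of these groups and of this share in the result was not tested.

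**Figure D2:**
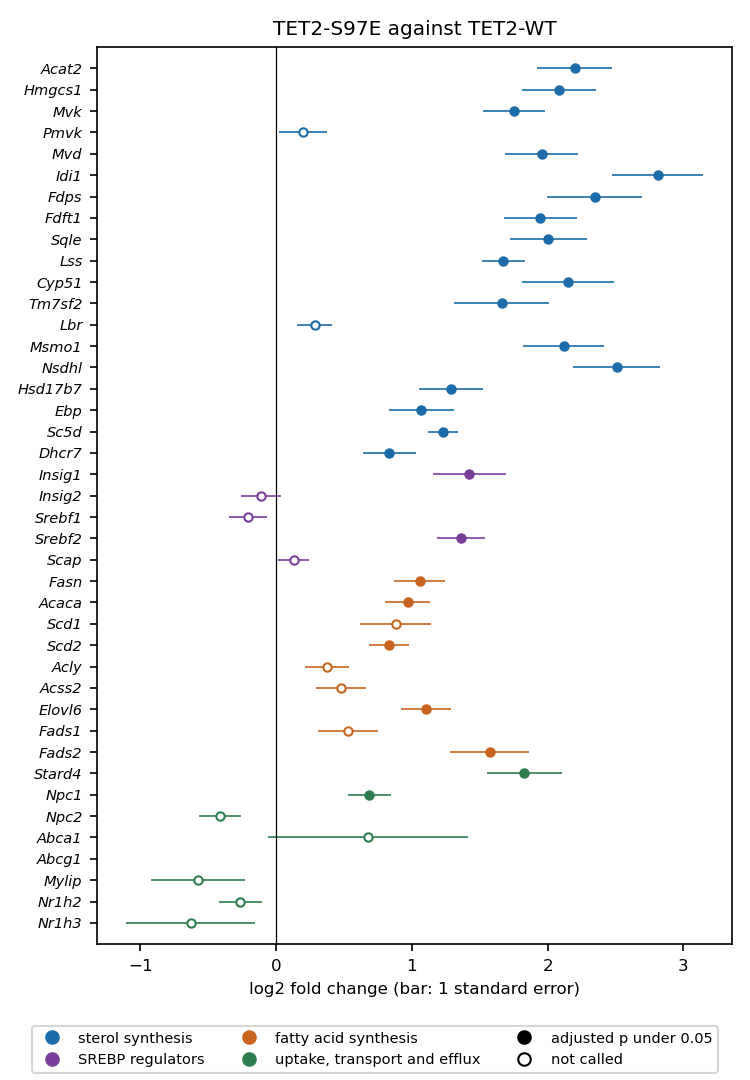
Log2 fold change of TET2-S97E against TET2-WT for the 40 members tested, with bars of 1 standard error, coloured by role and filled where the adjusted p was under 0.05. Sterol synthesis genes run from 0.20 for *Pmvk* to 2.81 for *Idi1* and fatty acid synthesis genes from 0.38 to 1.57, with *Insig2*, *Srebf1*, *Npc2*, *Mylip*, *Nr1h2* and *Nr1h3* below 0; *Abcg1* has no point because it was not tested.

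Clones of 1 genotype also differed. In TET2-WT, clone 2 was below clone 1 for 17 of 19 sterol synthesis genes, by a median of -0.83 (log2), and the edgeR test over 14459 genes called *Fdft1* (-1.02, SE 0.17, adjusted p 0.036) and *Cyp51* (-1.30, SE 0.22, adjusted p 0.0344) lower and *Abca1* (2.85, SE 0.52, adjusted p 0.0465) higher. Of all genes tested 0.463% were higher and 0.394% lower in that comparison. The difference of the sterol exporter ran opposite to that of the synthesis enzymes. Without either replicate of clone 1, or without replicate 2 of clone 2, no member and at most 27 of all genes were called, and without replicate 1 of clone 2 the calls were *Abca1* and *Msmo1*. With the replicate number as a block, edgeR called 14 members, beside 677 of 14459 genes. DESeq2 called 15 members, beside 6.44% of all genes. In the same fit *Myod1* was higher (1.32) and *Cdk1* lower (-1.13) in clone 2. Of the fibroblast markers, *Dcn* was at 177 and 179 CPM in clone 1 and at 413 and 502 CPM in clone 2. *Col3a1* was at 9542 and 9238 CPM in clone 1 and at 14043 and 15695 CPM in clone 2. *Lum* and *Dpt* were also higher in clone 2 without overlap, and *Pdgfra* overlapped. The part of these genes in these values was not tested.

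In TET2-S97E, edgeR called 0 of 40 members different between clones, and 5 were lower in clone 2 at an unadjusted p under 0.05. Over all genes the shares called were 3.35% higher and 2.82% lower, and 19.5% passed the unadjusted threshold in either direction. With the replicate number as a block, edgeR called *Hsd17b7* and *Scd1* lower, beside 1540 of 14459 genes. DESeq2 called 3 lower (*Srebf2*, *Scd1* and *Abca1*), beside 4.67% of all genes. By edgeR without the block the sterol synthesis median was -0.21, and it turned to 0.16 without clone 1 replicate 2. The clones differed in *Lpl* (4.11, adjusted p 0.000115 by edgeR), a secreted lipase, and *Myod1* (-2.36, adjusted p 0.00117 by edgeR) in the same fit. *Dcn* was at 265 and 195 CPM in clone 1 and at 1102 and 641 CPM in clone 2, and *Lum* and *Col3a1* were also higher there without overlap. *Dpt* (38.5 and 12.2 against 3.18 and 1.70 CPM), *Pdgfra* and *Cebpa* (61.1 and 72.9 against 38.9 and 43.1 CPM) were lower in clone 2 without overlap. The part of these genes was not tested.

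In the first table, loss of AMPK was compared with WT at each day. AMPK phosphorylates and restrains enzymes of both sterol and fatty acid synthesis, and the comparison here is of their transcripts. Sterol synthesis genes differed by a median of -0.16 (log2) at d0 and 0.04 at d8, fatty acid synthesis genes by -0.35 and 0.09, SREBP regulators by -0.22 and -0.09, and uptake, transport and efflux genes by -0.96 and -0.16. Single libraries moved these values. Without WT d0 replicate 1 the d0 medians were 0.29 for sterol synthesis, 0.00013 for the regulators and -0.17 for uptake, transport and efflux, and that of fatty acid synthesis was -0.11 without AMPK-KO d0 replicate 1. Without WT d8 replicate 1 the d8 medians were 0.56 for sterol synthesis, 0.33 for fatty acid synthesis and 0.05 for uptake, transport and efflux.

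*Hmgcs1* was at 678 and 269 CPM in WT d0 and 256 and 265 CPM in AMPK-KO d0, and at 424 and 181 CPM in WT d8 and 261 and 217 CPM in AMPK-KO d8. *Idi1* was at 89.6 and 53.0 CPM in WT d0, 39.3 and 47.2 CPM in AMPK-KO d0, 59.4 and 29.4 CPM in WT d8 and 47.4 and 43.1 CPM in AMPK-KO d8. *Sqle* was at 417 and 292 CPM in WT d0, 291 and 299.7 CPM in AMPK-KO d0, 269.8 and 159 CPM in WT d8 and 287 and 211 CPM in AMPK-KO d8. In these enzymes the spread between the WT replicates exceeded the distance between genotypes, although for *Hmgcs1* and *Idi1* both WT d0 libraries lay above both AMPK-KO d0 libraries. *Cyp51* was at 356 and 167 CPM in WT d0, 182 and 236 CPM in AMPK-KO d0, 317 and 150.1 CPM in WT d8 and 221 and 189 CPM in AMPK-KO d8. Its groups overlapped at both days.

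*Insig1* was at 309.5 and 146 CPM in WT d0, 166 and 159 CPM in AMPK-KO d0, 203 and 69.0 CPM in WT d8 and 154 and 102 CPM in AMPK-KO d8. *Srebf2* was at 507 and 471 CPM in WT d0, 389 and 379 CPM in AMPK-KO d0, 421 and 356 CPM in WT d8 and 379.8 and 272 CPM in AMPK-KO d8. *Srebf1* was at 125 and 124 CPM in WT d0, 98.9 and 114 CPM in AMPK-KO d0, 98.6 and 99.8 CPM in WT d8 and 90.4 and 91.8 CPM in AMPK-KO d8. Both SREBP genes were lower in the AMPK-KO libraries at d0 without overlap, but neither passed the test (adjusted p 0.390 and 0.419 by edgeR). For an unchanged gene, 2 libraries separate from 2 with a probability of 0.333.

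*Fasn* was at 363 and 367 CPM in WT d0, 396 and 341 CPM in AMPK-KO d0, 197 and 171 CPM in WT d8 and 243 and 278 CPM in AMPK-KO d8. *Scd1* was at 949.9 and 902 CPM in WT d0, 415 and 611 CPM in AMPK-KO d0, 1432 and 1447 CPM in WT d8 and 965 and 1529 CPM in AMPK-KO d8. *Scd2* was at 2104 and 2096 CPM in WT d0, 1085 and 1838 CPM in AMPK-KO d0, 1630.0 and 1663 CPM in WT d8 and 1085 and 1549 CPM in AMPK-KO d8. Both desaturases were lower in AMPK-KO d0 without overlap, by -0.85 (SE 0.28, adjusted p 0.149 by edgeR) and -0.52 (SE 0.29, adjusted p 0.368 by edgeR), and DESeq2 called *Scd1*.

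**Figure D3:**
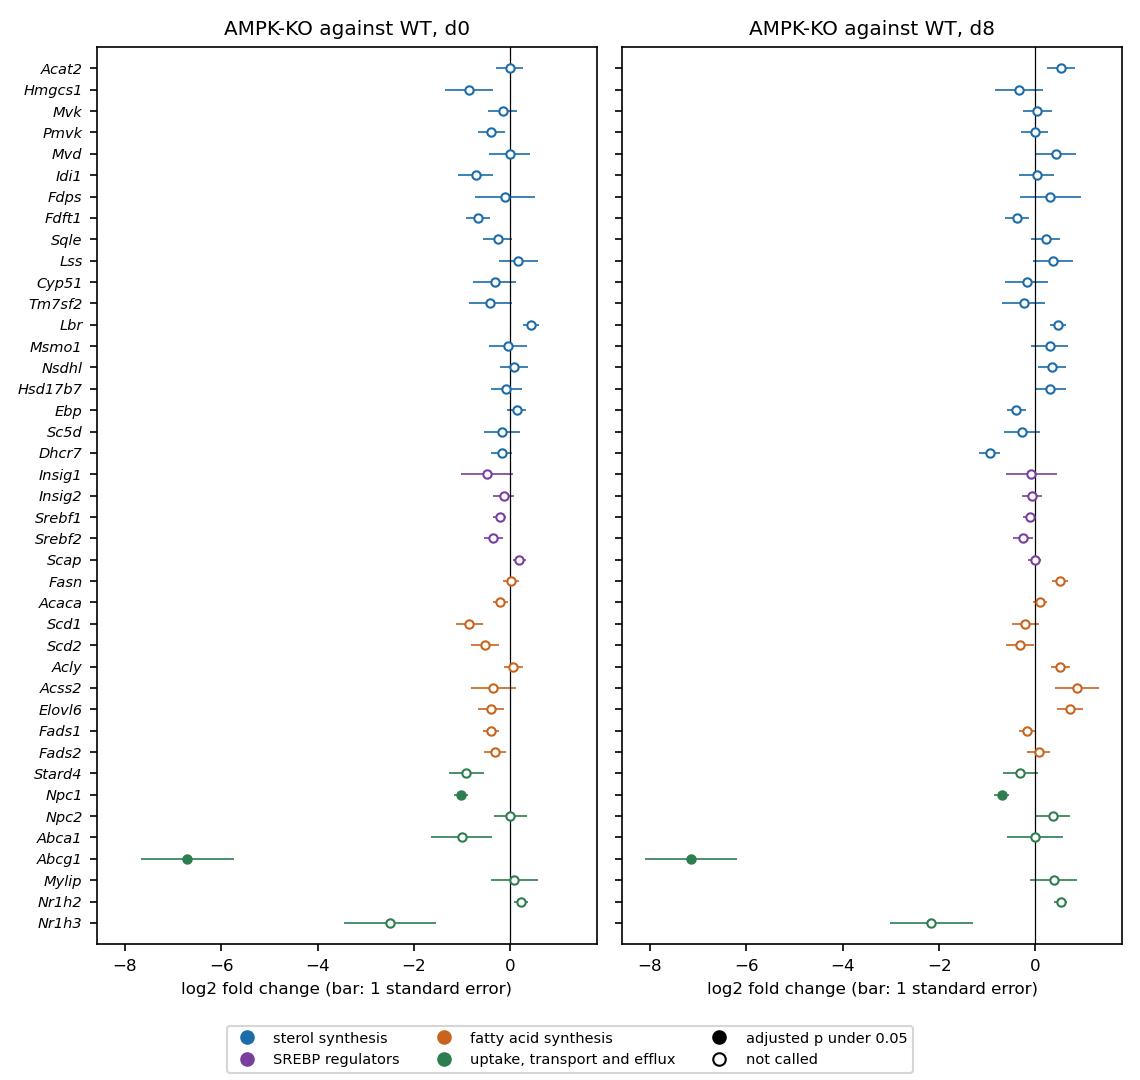
Log2 fold change between AMPK-KO and WT for the 41 members, with d0 on the left and d8 on the right, with bars of 1 standard error, coloured by role and filled where the adjusted p was under 0.05. Only *Npc1* and *Abcg1* are filled, both lower and on both days; the *Abcg1* point depends on the prior count, since the AMPK-KO libraries had 0 or 1 count.

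The 2 members called by edgeR in AMPK-KO against WT were transport genes, and both were lower on both days. *Npc1* was at 97.5 and 82.5 CPM in WT d0, 45.5 and 42.7 CPM in AMPK-KO d0, 75.0 and 70.7 CPM in WT d8 and 46.8 and 42.8 CPM in AMPK-KO d8. WT and AMPK-KO did not overlap at either day, and the log2 fold changes were -1.03 (SE 0.15, adjusted p 0.0173 by edgeR) at d0 and -0.70 (SE 0.15, adjusted p 0.0434 by edgeR) at d8. *Abcg1*, which passes sterol to lipoprotein particles, was at 4.24 and 2.11 CPM in WT d0 and 3.08 and 4.88 CPM in WT d8. In AMPK-KO it had 0 and 1 count at d0 and 1 and 0 counts at d8, so WT and AMPK-KO did not overlap. *Abcg1* thus passed the filter on low counts only through the WT libraries, and its calls and adjusted p-values are a description and not evidence of a difference. Over both replicates WT had 127 counts against 1 at d0, a ratio of 131 after scaling (exact 95% interval 23.1 to 5230.0, counting error only; adjusted p 0.0168 by edgeR). At d8 WT had 160 counts against 1, a ratio of 183 (exact 95% interval 32.3 to 7260.0; adjusted p 0.0118 by edgeR). Without WT d0 replicate 1 the d0 ratio was 85.6. The same gene stood at 0 or 1 count in the 8 AMPK-null libraries of the TET2 table. Those clones were made from AMPK-null C2C12 cells, so a trait of the parent line and loss of AMPK cannot be told apart there.

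Over all 14329 genes tested, 0.698% were higher and 2.83% lower at d0, and 1.36% were higher and 3.98% lower at d8, against 0 members higher and 2 of 41 lower at each day. At an unadjusted p under 0.05, 1 member was higher at d0 (8.03% of all genes) and 5 at d8 (9.85%), and 7 were lower at d0 (12.9%) and 4 at d8 (12.9%). DESeq2 called 0 higher and 3 lower at each day, beside 6.74% of all genes lower at d0 and 7.18% at d8, adding *Scd1* at d0 and *Dhcr7* at d8. *Dhcr7*, which makes the last reduction to cholesterol and is named here after its values were seen, was at 60.4 and 58.7 CPM in WT d8 and 30.1 and 31.8 CPM in AMPK-KO d8 without overlap (log2 fold change -0.95, SE 0.22, adjusted p 0.0552 by edgeR), and it was also called with only the d8 libraries. The *Npc1* call was lost at d0 without WT d0 replicate 1 (adjusted p 0.0522) or either AMPK-KO replicate (0.109 and 0.107), and at d8 without any single d8 library (0.133 to 0.242), and with only the libraries of that day (0.0597 at d0 and 0.053 at d8), all by edgeR. The *Abcg1* call was lost without either AMPK-KO replicate at d0 (0.112 and 0.0809) and without either WT replicate at d8 (0.0514 and 0.0624), and it was fitted lower under each alternative. Of the muscle markers, *Myod1*, *Myog* and *Mymk* were called lower in AMPK-KO d0. At d8 *Dcn* was at 879 and 1368 CPM in WT and at 240 and 400 CPM in AMPK-KO, and *Lum* was also lower without overlap. *Cebpa* (41.9 and 25.3 CPM in WT d8, 73.9 and 53.1 CPM in AMPK-KO d8) and *Pdgfra* were higher without overlap, and *Dpt* and *Col3a1* overlapped. The part of these genes in these values was not tested.

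*Stard4* was at 155 and 108 CPM in WT d0, 77.9 and 61.9 CPM in AMPK-KO d0, 63.2 and 31.2 CPM in WT d8 and 43.9 and 32.1 CPM in AMPK-KO d8. *Abca1* was at 5.26 and 1.19 CPM in WT d0, 1.62 and 1.59 CPM in AMPK-KO d0, 14.4 and 20.03 CPM in WT d8 and 13.6 and 20.8 CPM in AMPK-KO d8. In both genotypes the d8 libraries of *Abca1* lay above the d0 libraries, and at d8 WT and AMPK-KO overlapped (log2 fold change -0.003, SE 0.58).

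**Figure D4:**
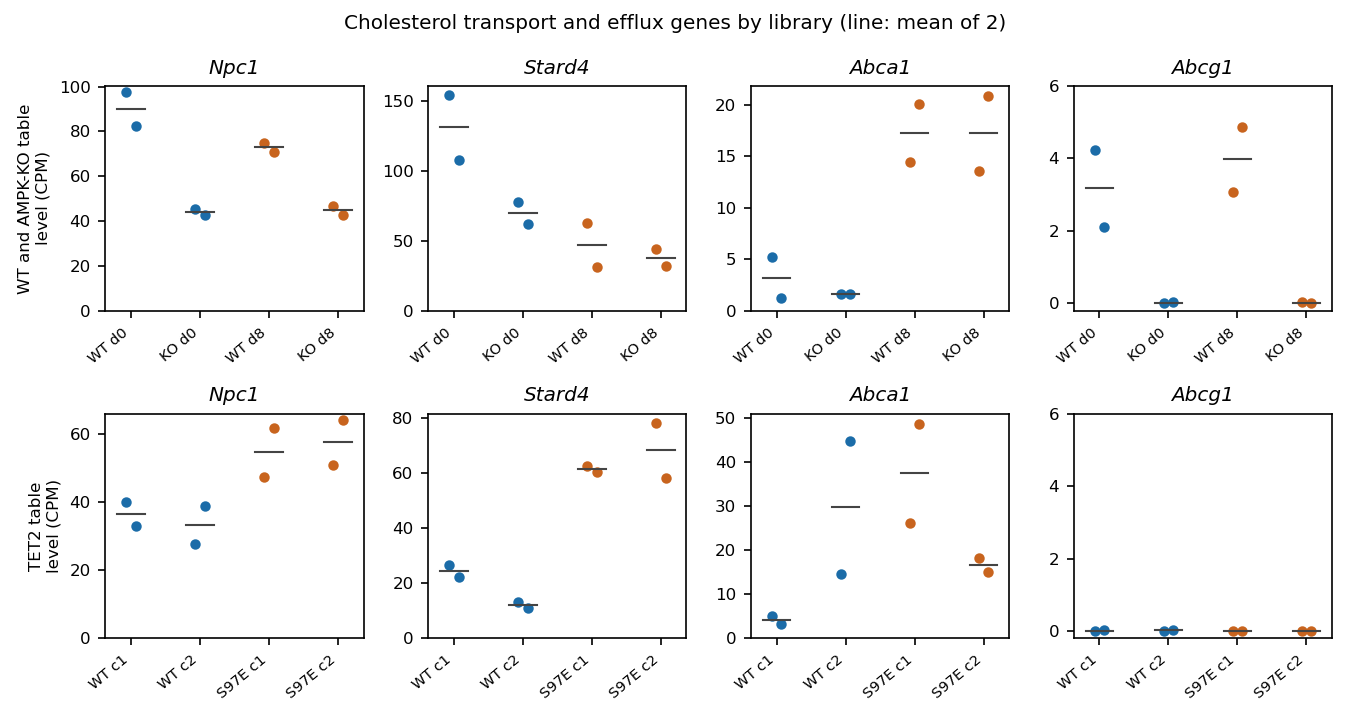
Level in CPM of cholesterol transport and efflux genes by library in the WT and AMPK-KO table (upper row) and the TET2 table (lower row, c for clone), with a line at the mean of 2 replicates. *Npc1* separates WT from AMPK-KO on both days, *Abcg1* is near 0 in every AMPK-null library, and *Stard4* is higher in both TET2-S97E clones.

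The AMPK-KO effect was compared between days by the interaction term. edgeR called 0 of 41 members, where 0% of all genes were called, and DESeq2 called 0 members, beside 0.421% of all genes. At an unadjusted p under 0.05, 2 members passed, beside 5.09% of all genes. The median difference was 0.33 over the members and 0.04 over all genes, and that of the members ran from 0.05 without WT d0 replicate 1 to 0.64 without WT d8 replicate 1.

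From d0 to d8 in WT, 4 of 9 fatty acid synthesis genes, 2 of 19 sterol synthesis genes and 2 of 8 uptake, transport and efflux genes were called. Lower were *Elovl6* (-2.37, SE 0.28, adjusted p 0.0143 by edgeR), an elongase at 95.2 and 114 CPM in WT d0 and 22.1 and 18.4 CPM in WT d8, and *Lbr* (-1.18, adjusted p 0.0143 by edgeR) at 77.1 and 92.9 CPM in WT d0 and 39.4 and 35.8 CPM in WT d8. *Fasn* (-0.99), *Acly* (-0.90), *Fads1* (-0.66) and *Stard4* (-1.48) were also lower, and *Abca1* (2.41, SE 0.62) and the sterol isomerase *Ebp* (0.76, SE 0.20) were higher. Together 2 members were higher and 6 lower, against 5.78% and 6.58% of all genes. With the replicate number as a block, *Abca1* was no longer called (adjusted p 0.0526 by edgeR) and *Acaca* was, again 8 members. Of all 14329 genes 2360 were then called, against 1771 without the block.

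In AMPK-KO, 3 members were higher and 2 lower from d0 to d8, against 4.81% and 4.95% of all genes. *Abca1* (3.42, SE 0.66, adjusted p 0.0283 by edgeR), *Scd1* (1.28, SE 0.28, adjusted p 0.0376 by edgeR) and the LXR gene *Nr1h2* (0.71, SE 0.14, adjusted p 0.0281 by edgeR) were higher. *Elovl6* (-1.25, SE 0.27, adjusted p 0.0343 by edgeR) and *Lbr* (-1.14, SE 0.17, adjusted p 0.0217 by edgeR) were lower, and the block added *Stard4*, giving 6 members. Under the block 1854 of 14329 genes were called, against 1398 without it. *Nr1h2* stood at 68.3 and 65.6 CPM in AMPK-KO d0 and 111 and 109 CPM in AMPK-KO d8, with no overlap.

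The sterol synthesis median from d0 to d8 was -0.55 in WT and -0.21 in AMPK-KO, and without WT d0 replicate 1 the WT value was -0.004. The AMPK-KO value was -0.04 without AMPK-KO d0 replicate 2 and -0.09 without AMPK-KO d8 replicate 2. Leaving out WT d0 replicate 2, WT d8 replicate 1 or WT d8 replicate 2 left 0 members called in WT, where at most 2 of all genes tested were then called. Leaving out either AMPK-KO d0 replicate left 0 members and at most 1 of all genes in AMPK-KO, and leaving out AMPK-KO d8 replicate 2 left 0 members and 392 of 15064 genes. By the same edgeR calls at an adjusted p under 0.05, proliferation genes were lower, 7 of 8 in WT and 8 of 8 in AMPK-KO, and muscle markers higher, 6 of 8 and 7 of 8, beside the shares of all genes given above. Of 5 fibroblast markers tested, 4 were called higher in WT and 2 in AMPK-KO, and of 10 interferon-stimulated genes 3 were called higher in AMPK-KO, where replicate 1 at d8 stood apart. The part of these groups in the changes was not tested.

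**Figure D5:**
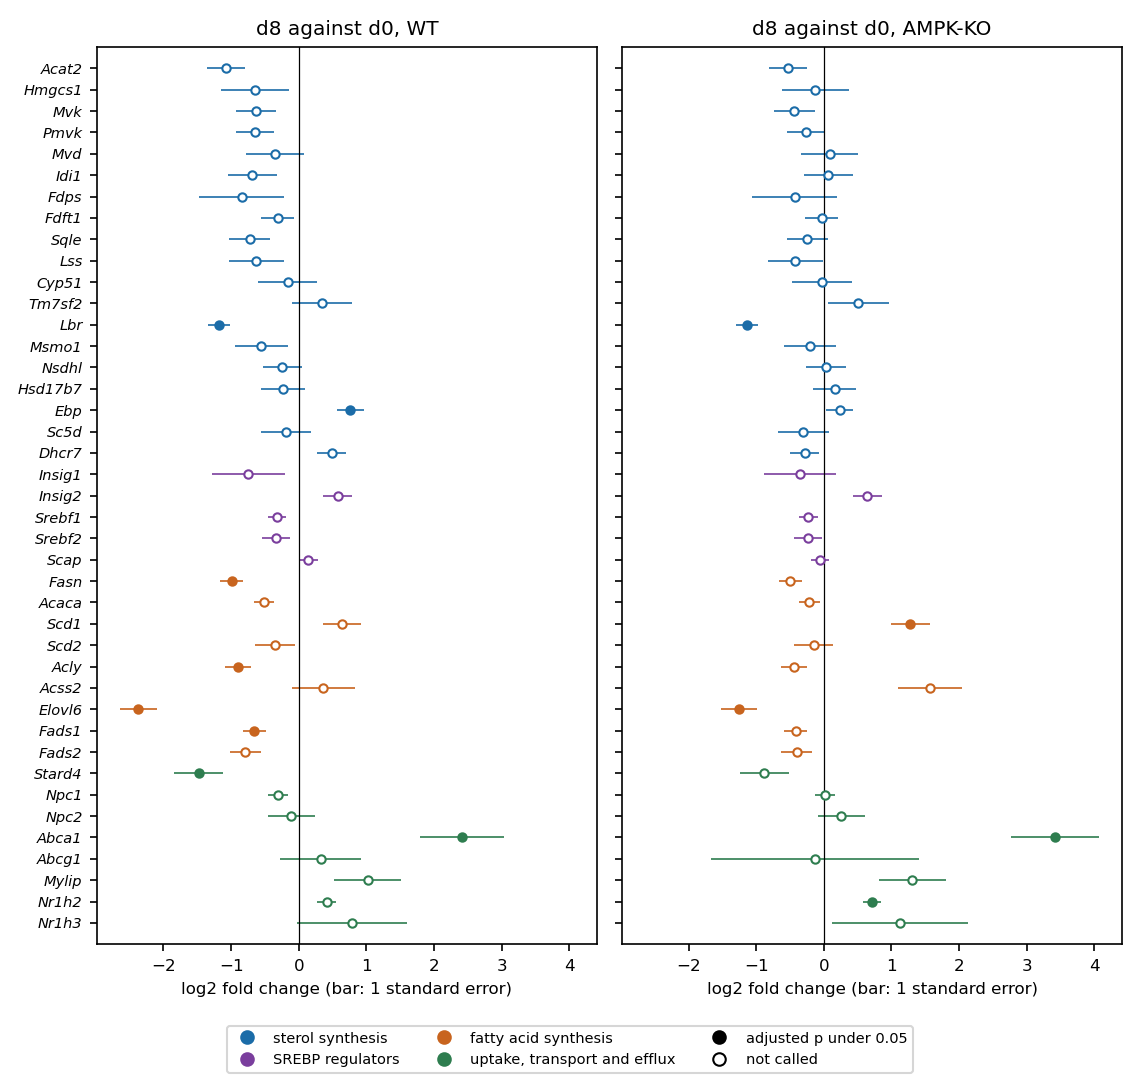
Log2 fold change of d8 against d0 in WT and in AMPK-KO for the 41 members, with bars of 1 standard error, coloured by role and filled where the adjusted p was under 0.05. *Elovl6* and *Lbr* are lower and *Abca1* higher in both genotypes.

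Compared per length (CPM per kb of merged exons), *Scd2* was the most abundant member in WT d0 at 384, followed by *Scd1* at 189, *Hmgcs1* at 103, *Npc2* at 90.8, *Insig1* at 73.6 and *Srebf2* at 68.1. *Hmgcs1* and *Npc2* did not differ beyond their replicate spread (SD 63.0 and 33.7, n = 2), and the order after *Scd1* rested on replicate 1. In WT d0 replicate 2 *Npc2* stood at 66.9, *Srebf2* at 65.6, *Hmgcs1* at 58.5 and *Insig1* at 47.1. In TET2-WT the order was *Scd2* at 162 ± 10.7 (SD, n = 4 libraries of 2 clones), *Npc2* at 153 ± 23.2, *Scd1* at 98.6 ± 16.7 and *Nr1h2* at 41.7 ± 5.35. No sterol synthesis enzyme was among the first 8. In TET2-S97E it was *Scd2* at 288 ± 43.5, *Scd1* at 182 ± 73.3, *Npc2* at 115 ± 14.7, *Srebf2* at 77.0 ± 16.1, *Sqle* at 70.6 ± 12.5 and *Hmgcs1* at 60.7 ± 14.02. *Scd2* and *Npc2* in TET2-WT lay within their spread. In TET2-S97E the same held for *Scd1* and *Npc2*, and for *Srebf2*, *Sqle* and *Hmgcs1*.

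Related lipid genes, 24 of which were listed beside the members, gave the setting. In TET2-S97E against TET2-WT, edgeR called 3 of the 22 tested higher at an adjusted p under 0.05, beside 3.71% of all genes, namely *Lpin1* (0.92), a phosphatidate phosphatase, *Acsl3* (1.25), an acyl-CoA synthetase, and *Lpcat3* (0.57), which remodels phospholipids, and 8 were higher at an unadjusted p under 0.05 (edgeR), beside the 12.3% of all genes given above. In AMPK-KO against WT, 2 of 23 were called lower at each day, beside 2.83% of all genes at d0 and 3.98% at d8. *Dgat2*, which makes triglyceride, was lower by -3.33 at d0 (adjusted p 0.00969 by edgeR) and -2.66 at d8 (adjusted p 0.0137 by edgeR). *Vldlr*, a lipoprotein receptor, had 335 and 49 counts in WT d0 and 861 and 1106 counts in WT d8 but 1 to 3 counts in every AMPK-KO library. It passed the filter on low counts only through the WT libraries, so its calls are a description. The WT to AMPK-KO ratio of summed counts was 99.2 at d0 (exact 95% interval 38.4 to 366) and 1120.0 at d8 (311 to 9280.0), intervals that cover counting error only. The d0 ratio was 26.9 without WT d0 replicate 1 and 164 without WT d0 replicate 2, omissions chosen after the data were seen. From d0 to d8 the scavenger receptor *Scarb1* was lower in both genotypes (-1.09 and -1.15), *Me1* lower in WT (-0.62) and *Acsl3* higher in AMPK-KO (1.44).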

How the data were processed

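The deposited values are raw counts of reads per gene, which the authors made from paired-end reads with bcl2fastq 2.17, Trim Galore 0.4.5, STAR 2.5.3a in two-pass mode on GRCm38 and featureCounts 1.5.3 on GENCODE M12. Strand and multi-mapping settings were not given in the sources used here, so counts of *Acaca*, *Acat2*, *Idi1* and *Fdft1*, of whose 100-base windows 42.8%, 35.3%, 27.6% and 21.5% recur in another gene, are uncertain. Totals ran from 17883417 to 24663079 counts in the first table and from 19801909 to 37790358 in the second. Of 49585 identifiers, 49326 were named from GENCODE M21. Members, lists and named genes (13 landmarks, and called members, at most 8 per comparison) were chosen with earlier results of these data known.

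Counts were fitted in R 4.3.3 with edgeR 4.0.16 (TMM, filterByExpr, quasi-likelihood test, Benjamini-Hochberg adjustment over all genes tested, threshold 0.05), by 4 groups in the first table and by genotype, or by 4 clone groups, in the second. DESeq2 1.42.0, limma 3.58.1 voom with clone as a random effect, other size factors, no filter, summed clones and each library left out were the alternatives. The main fits were unpaired, with no block for the replicate number, since the labels do not state that replicate numbers pair libraries. In the first table, deviations of same-numbered libraries correlated at 0.108 to 0.307 across groups. A replicate block was therefore also fitted, as an alternative, in both tables. Ratios of *Abcg1* and *Vldlr* were taken from summed counts per scaled library size, with Clopper-Pearson 95% intervals.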

Additional observations from a re-analysis of the deposited data

Results flagged for a closer look

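In 4 of 80 groups of 4 libraries, the highest library stood further from the nearest of the others than Dixon's 95% value allows, and chance gives about 1 in 20 such groups. All 4 were sterol synthesis genes in TET2-S97E. *Hmgcs1* was at 375.3 CPM in clone 2 replicate 1 against 241.7 to 251.3 CPM in the other libraries. *Idi1* was at 71.08 CPM in the same library against 44.68 to 47.51 CPM. *Acat2* was at 132.8 CPM in clone 1 replicate 2 against 75.35 to 84.11 CPM, and *Dhcr7* was at 67.3 CPM in that library against 37.61 to 41.3 CPM.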

How the results depend on the processing

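Members called in TET2-S97E against TET2-WT numbered 26, 17 to 25 without single libraries (304 to 1092 of all genes), 17 with clone as a random effect in voom (1.24% of all genes) and 0 with counts summed per clone, and the sterol median moved from 1.95 to 2.29 without TET2-WT clone 1 and 1.52 without TET2-WT clone 2. *Abca1* turned from 0.68 to -0.13 without TET2-WT clone 1 and to -0.027 without TET2-S97E clone 1. Without the filter on low counts, members called were 7 in AMPK-KO against WT at d0, 5 at d8, 14 for days in WT, 8 for days in AMPK-KO, 3 between TET2-S97E clones and 16 between TET2-WT clones, and the shares of all genes also rose, to 8.08%, 9.98%, 13.1%, 12.1%, 6.56% and 6.36% in the same order. With only the libraries of that day, 1 of 40 members was called at d0 and 2 of 41 at d8, beside 335 of 13169 and 771 of 13744 genes. Without single libraries the counts ran from 0 to 2 at d0 (17 to 437 of all genes), 0 to 1 at d8 (107 to 552), 0 to 5 for days in WT (0 to 2260), 0 to 3 for days in AMPK-KO (0 to 923), 0 to 1 between TET2-S97E clones (488 to 580) and 0 to 2 between TET2-WT clones (0 to 140). Without single libraries the sterol median ran from -0.49 to 0.29 at d0, from -0.12 to 0.56 at d8 and from -0.83 to -0.0039 for days in WT. DESeq2 called 3 members between TET2-S97E clones and 15 between TET2-WT clones. The replicate block gave 2 and 14 there (1540 and 677 of all genes, against 892 and 124 without it). Same-numbered libraries correlated there at -0.0262 to 0.502, and replicate 2 had more counts than replicate 1 in each clone. Beyond *Abca1*, *Acaca* and *Stard4* between days, the block changed no member called in the AMPK table. Each fold change followed, mainly of genes called by edgeR in that comparison, was recomputed under each alternative. Of these values 641 kept their direction and side of the threshold, 191 lost the call, 6 gained one and 2 reversed, and members called only under an alternative are not in these counts. *Abcg1* had at most 1 count in each of the 12 AMPK-null libraries, so the size of its ratio is uncertain. The causes of these shifts were not tested.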
